A study of Homo sapiens with 66 samples.

Results

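The response of THP-1 cells to 24 h of IFN-α was measured by comparing 3 libraries of treated cells with 3 libraries of untreated cells. All were harvested on day 4 after nucleofection. These 6 libraries belong to the 48 libraries, in 16 groups, of the first RNA-seq study in a series of 66 libraries. They were chosen by their labels alone, and no measured value was used. The line THP-1 derives from a human leukemia with monocytic features. All 6 libraries came from 1 STING-deficient clone with a Cas9 transgene that had been nucleofected with nontarget gRNA only (NC1 in both gRNA positions), so treated and untreated cells share the STING deficiency, Cas9, and the nucleofection. IFN-α was added to the medium on day 3 at 1000 U/ml. Total RNA of whole cells was depleted of ribosomal RNA and sequenced. Untreated cells are called CTRL here. The study describes independent experiments, but the labels give replicate numbers alone. The p-values for genes, introns, and editing cluster regions rest on the spread within the groups of all 48 libraries. Those for editing rest on these 6 libraries. In both cases the spread may be technical. The bulk libraries cannot tell apart more RNA per cell and more cells with that RNA.

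Reads on genes numbered 108028880 to 152073473 per library in CTRL cells and 107072732 to 133373373 in IFN-α–treated cells. Gene, intron, and editing cluster region counts were expressed as CPM, which are counts relative to the gene total of the library scaled by its TMM factor. Of the genes that define monocytes, LYZ had 191 to 234 CPM, SPI1 had 51.1 to 59.2, CD33 had 56.7 to 61.4, and CSF1R had 33.2 to 37.8 in CTRL cells, whereas CD14 (0.115 to 0.234 CPM) and CD68 (0.0534 to 0.230) were close to 0. Markers of T and NK cells together had 5.53 to 7.44 CPM in CTRL and 7.03 to 8.32 in IFN-α–treated cells. Those of dendritic cells had 4.77 to 4.87 and 5.16 to 6.27, those of erythroid cells and megakaryocytes 1.01 to 1.49 and 0.650 to 1.12, and those of epithelium and fibroblasts 0.432 to 0.708 and 0.510 to 0.821. HNRNPC, which other gRNAs of the study targeted, had 779 ± 48.2 CPM in CTRL and 847 ± 19.1 in IFN-α–treated cells (SD, n = 3 each), and STING1, whose protein the clone lacks, had 128 ± 13.8 and 130.1 ± 9.90 (SD, n = 3 each).

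Type I IFNs bind the receptor formed by IFNAR1 and IFNAR2, and the kinases JAK1 and TYK2 then phosphorylate STAT proteins. STAT2 and IRF9 are parts of the complex ISGF3, which binds the interferon-stimulated response element (ISRE) in the promoters of IFN-stimulated genes (ISGs). Many ISG products act on viral RNA or bind double-stranded RNA (dsRNA), and among them is ADAR, the enzyme that changes adenosine to inosine (A-to-I editing) in dsRNA. Inosine is read as G by sequencing, so editing can be counted from the same reads.

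The promoters of the genes with the largest response are shown first, because they hold the letters that ISGF3 is known to bind. The motif GAAANNGAAA was searched on both strands, in 300 bases around each start site (RefSeq, GRCh38.p14), and the capitals mark a match in each of the 10 genes with the largest increase that had one. The strand shown is the one that reads GAAANNGAAA from 5′ to 3′.
IFI44L (chr1:78620365-78620394, plus strand): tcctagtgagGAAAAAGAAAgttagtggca
IFI27 (chr14:94110631-94110660, plus strand): cggtttcctgGAAAATGAAAcctatctcat
IFI44 (chr1:78649761-78649790, minus strand): tcagagaaagGAAACTGAAActcagtgtgc
IFIT1 (chr10:89392510-89392539, minus strand): gaaacctaggGAAACCGAAAggggaaagtg
MX1 (chr21:41420559-41420588, plus strand): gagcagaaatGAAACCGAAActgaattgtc
IFI6 (chr1:27672266-27672295, minus strand): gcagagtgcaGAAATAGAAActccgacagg
EPSTI1 (chr13:42992272-42992301, minus strand): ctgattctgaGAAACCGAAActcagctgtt
IFIT3 (chr10:89327865-89327894, minus strand): gaggaaactgGAAAGTGAAActaatttaaa
OAS3 (chr12:112938452-112938481, plus strand): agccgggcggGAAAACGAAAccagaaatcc
IFITM1 (chr11:314024-314053, plus strand): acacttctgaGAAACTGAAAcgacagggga
The match began 18 bases before the start site in IFI44, 73 before it in IFI44L, 122 before it in IFIT3, and 11 bases after it in MX1.

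At least 1 such match was found in 46 of the 116 genes called higher (below) that had a promoter in the table (39.7%). It was found in 3.65% of all 27305 promoters, in 2.93% of the 9955 promoters of tested genes, and in 2.51% of those of genes that were not called. The share was 63.6% (14 of 22) for genes with a log2 fold change of 4 or more, 37.5% (15 of 40) from 2 to 4, and 31.5% (17 of 54) from 1 to 2. The gamma-activated site TTCNNNGAA, which STAT dimers are known to bind, was found in 16.4% (19) of the same 116 promoters and in 7.88% of all promoters. None of the 9 promoters of genes called lower held either motif. These are matches of letters, and binding was not measured.

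With edgeR (quasi-likelihood test, p-values adjusted after Benjamini and Hochberg), 159 genes (1.21% of the 13187 tested) were higher and 15 (0.114%) were lower with IFN-α, at a log2 fold change of at least 1 in size and an adjusted p of at most 0.05. In all IFN-α libraries 158 of the 159 lay above all CTRL libraries, which 2174 of all tested genes (16.5%) did, and 1514 (11.5%) lay below. The exception, TRMT61A-DT, was named after its values were seen. Adjusted p values of at most 0.05 with a smaller change were found for 1306 genes toward higher and 933 toward lower levels. The response was thus steep for few genes: 31 of the 159 had a log2 fold change of 4 or more, 47 from 2 to 4, and 81 from 1 to 2. The 159 genes held 0.390, 0.402, and 0.397% of the scaled counts in the CTRL libraries and 2.08, 2.38, and 2.38% in the IFN-α libraries. Their starting levels ranged widely, with a CTRL mean under 0.1 CPM in 5 genes, from 0.1 to 1 in 25, from 1 to 10 in 61, and of 10 or more in 68. Of the 159, 150 were protein-coding and 3 lncRNA.

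IFI44L, a cytoplasmic ISG product on chromosome 1 (79085587 to 79111830 of GRCh37), had the largest fold change. It had 0.120, 0.304, and 0.167 CPM in the CTRL libraries and 520.0, 502, and 515 in the IFN-α libraries. The treated libraries were close to each other and far above CTRL, and the log2 fold change was 11.29 (standard error 0.390, adjusted p = 3.57e-24 by edgeR). MX1, a dynamin-like GTPase that traps viral nucleocapsids (chromosome 21, 42791947 to 42841998), had 4.71, 4.81, and 4.47 CPM in CTRL and 1147, 1374, and 1335 in IFN-α–treated cells, a log2 fold change of 8.11 (standard error 0.232, adjusted p = 2.53e-26 by edgeR). No library of either group came near the other group. The 15 called genes with the highest mean CPM with IFN-α included MX1 (1285), ADAR (1236), PARP14 (1072), OAS2 (629.5), RNF213 (576), and SAMD9L (556). Divided by the length of their exons, so that genes can be compared, the level with IFN-α was 529.7 CPM per kb for IFI6, 345 for ISG15, 169 for IFITM3, 126 for LAP3, 100.9 for ADAR, and 71.5 for MX1.

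**Figure D1:**
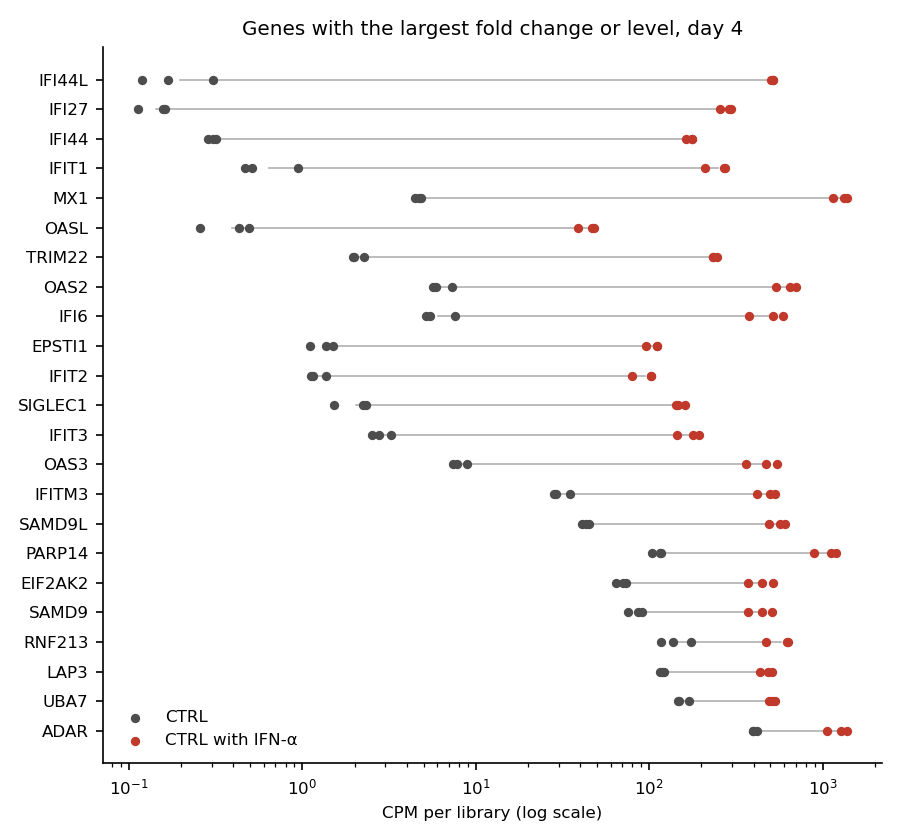
CPM per library on a log scale for the genes with the 15 largest fold changes or the 15 highest levels among those called higher, with gray points for the 3 CTRL and red points for the 3 IFN-α libraries and a line between the means. CXCL11, without counts in CTRL cells, and 1 gene not reported here are left out. The 3 points of a group lie close together beside the gap between groups, which spans from 0.197 to 512 CPM for IFI44L and from 404 to 1236 for ADAR.

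The genes were grouped in lists by function. Over all tested genes, the median log2 fold change was 0.02. IFN ligands were not detectable at this depth beyond single counts. All 21 ligand genes of the list were below the filter, with a sum of 0.0134 to 0.0472 CPM in CTRL and 0 to 0.0406 in IFN-α–treated cells, where a count of 0 in a single gene allows up to 0.0197 to 0.0280 CPM (3 counts, for counting error only).

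Of the receptor and JAK-STAT genes, 5 of 22 tested were higher and none lower (median log2 fold change 0.17). The receptor chains and kinases stayed close to their CTRL level: IFNAR1 had a log2 fold change of −0.02, IFNAR2 0.07, JAK1 −0.06, and TYK2 −0.02, and none was called. STAT2 and IRF9, which take part in ISGF3, were called. STAT2 had 102, 85.8, and 89.2 CPM, and then 312, 299, and 310.3 (log2 fold change 1.73). IRF9 had 2.21, 1.47, and 1.30 CPM in CTRL and 13.1, 8.36, and 8.64 in treated cells (log2 fold change 2.60). In both genes the lowest treated library was above the highest CTRL library. USP18, a protease that removes ISG15 and dampens the receptor, rose from 3.12, 3.52, and 4.06 to 90.0, 105, and 119 CPM (log2 fold change 4.87). STAT4 also rose (log2 fold change 1.07).

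The IFN regulatory factor list had 3 of 11 tested genes higher (median 0.11). IRF7, the factor that drives IFN-α genes, had 11.7, 7.74, and 9.99 CPM in CTRL and 141, 149, and 105 in IFN-α–treated cells (log2 fold change 3.75). BATF2 rose with a log2 fold change of 2.19. IRF1 (0.55) and IRF8 (0.07) were not called, and IRF8, a factor of the monocytic lineage, had 865 to 888 CPM in CTRL and 878 to 977 in treated cells.

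Of sensors of RNA and DNA and their adaptors, 6 of 20 tested were higher (median 0.17). All 3 RIG-I–like receptors rose by similar amounts. IFIH1, which encodes MDA5, had 20.6, 21.7, and 22.8 CPM in CTRL and 152, 178, and 180.1 in treated cells (log2 fold change 2.97, standard error 0.108, adjusted p = 1.58e-23 by edgeR). RIGI, which encodes RIG-I, had 16.2, 16.3, and 16.4 CPM, and then 111, 129, and 139 (log2 fold change 2.95). DHX58, which encodes LGP2, had 3.51, 3.49, and 3.43 CPM, and then 36.6, 39.3, and 41.7 (log2 fold change 3.49). Groups were far apart in each, and the CTRL libraries of each gene were nearly equal. IFI16 (3.48), MYD88 (1.78), and TLR7 (1.49) were called as well. MAVS, the adaptor of RIG-I and MDA5 (log2 fold change 0.03), and the DNA sensor CGAS (0.10) were not.

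The 2′-5′-oligoadenylate synthetases, which make a small nucleotide messenger in the presence of dsRNA, all rose, as did the related OASL. In this list 4 of 7 tested genes were higher, with a median log2 fold change of 5.73. OAS2 had 5.69, 5.87, and 7.29 CPM in CTRL and 539, 649, and 700.5 in IFN-α–treated cells (log2 fold change 6.64, standard error 0.197, adjusted p = 4.64e-26 by edgeR). OAS1 rose with a log2 fold change of 5.73, OAS3 with 5.83, and OASL with 6.83.

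Nearly the whole list of IFIT, MX, viperin, and IFI genes rose, with 23 of 26 tested higher and a median of 3.90. IFI27, a small mitochondrial protein, had 0.156, 0.162, and 0.114 CPM in CTRL and 255, 287, and 294 in IFN-α–treated cells (log2 fold change 10.92, standard error 0.378, adjusted p = 3.57e-24 by edgeR). IFIT1, which binds RNA without a self cap, had 0.469, 0.513, and 0.942 CPM, and then 209, 268, and 273 (log2 fold change 8.58). IFI44 rose from 0.304, 0.317, and 0.287 to 177, 162, and 176 CPM (log2 fold change 9.14). Groups were separated by more than 100-fold in these 3 genes. IFI6 (6.35), EPSTI1 (6.33), IFIT2 (6.28), and IFIT3 (5.92) followed. The members of the list that were tested and not called included IFI27L1 (log2 fold change 0.45), a neighbor of IFI27.

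ISG15 is a ubiquitin-like protein, and 8 of 9 tested genes of its conjugation were higher (median 3.64). ISG15 had 8.08, 7.28, and 9.35 CPM in CTRL and 283, 373, and 242 in IFN-α–treated cells (log2 fold change 5.18, standard error 0.201, adjusted p = 1.16e-22 by edgeR). Its E1 enzyme UBA7 had a log2 fold change of 1.71, its E2 enzyme UBE2L6 4.10, and its E3 ligase HERC5 3.80. The E1, E2, and E3 enzymes named here were thus called, together with the protease USP18.

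Of IFITM proteins, tetherin, and SAM-domain restriction factors, which block entry, release, or translation of viruses, 5 of 13 tested were higher (median 0.70). IFITM3, which blocks entry from endosomes, had 28.8, 28.4, and 35.01 CPM in CTRL and 417, 528, and 499 in treated cells (log2 fold change 3.97). IFITM1 (5.64), SAMD9L (3.69), SAMD9 (2.40), and BST2, which encodes tetherin (2.04), rose as well. IFITM2, next to IFITM1 and IFITM3 and near-identical to the latter, had a log2 fold change of 0.96 and missed the threshold. Since uniquely mapped reads alone were counted, levels of such close paralogs are uncertain.

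Of dsRNA effectors and editing enzymes, 4 of 17 tested were higher (median 0.08). ADAR (chromosome 1, 154554171 to 154600489) had 398, 416, and 397 CPM in CTRL and 1053, 1281, and 1373 in IFN-α–treated cells. All treated libraries were far above CTRL, with a log2 fold change of 1.61 (standard error 0.0822, adjusted p = 7.50e-19 by edgeR). The gene count joins the constitutive and the IFN-inducible transcripts of ADAR, which start at different promoters. The other editing enzymes did not move with it: ADARB1 had 5.4004, 5.39, and 4.46 CPM in CTRL and 5.11, 5.28, and 5.15 in treated cells (log2 fold change 0.03, not called), and ADARB2 had no counts in any of the 6 libraries, each of which allows up to 0.0280 CPM. EIF2AK2, which encodes the dsRNA-dependent kinase PKR, had 64.6, 73.7, and 70.7 CPM, and then 370.4, 447, and 514 (log2 fold change 2.67). The mitochondrial RNA degrading enzyme PNPT1 (1.28) and the cytidine deaminase APOBEC3G (1.21) were the other members called.

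TRIM and PML nuclear body genes had 8 of 18 tested higher (median 0.89). TRIM22, a restriction factor, rose from 1.99, 1.97, and 2.27 to 234, 232, and 245 CPM (log2 fold change 6.83, standard error 0.214, adjusted p = 2.00e-25 by edgeR), whereas its neighbor TRIM5, which recognizes retroviral capsids, rose from 19.4, 19.7, and 21.3 to 67.8, 78.0, and 81.1 CPM (log2 fold change 1.91). SP110 (3.32) and TRIM69 (2.21) were called as well. Of the ADP-ribosyltransferase (PARP) list, 5 of 16 were higher (median 0.26), namely PARP9 (log2 fold change 4.14), PARP14 (3.26), PARP12 (2.28), PARP10 (2.00), and the PARP9 partner DTX3L (1.87).

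Guanylate-binding proteins (GBPs) and dynamin-like GTPases had 7 of 14 tested higher (median 1.07), with the MX genes at the top. The GBPs themselves coat intracellular pathogens and are best known as targets of IFN-γ. GBP1, GBP2, GBP4, and GBP5 were called, GBP4 with a log2 fold change of 1.71, and GBP1 was low. GBP1 had 0.120, 0.0337, and 0.0601 CPM in CTRL and 0.227, 0.549, and 0.268 in treated cells (log2 fold change 2.34). The groups did not overlap, yet GBP1 rested on 27 counts over the 3 CTRL libraries, and its adjusted p of 0.00259 by edgeR became 0.0673 with limma-voom. GBP1P1, a GBP1 pseudogene, rose from 0.0368, 0.0472, and 0.0802 to 2.16, 2.61, and 2.71 CPM (log2 fold change 5.45, 23 CTRL counts). Reads of GBP1 and its pseudogene may be exchanged where they are near-identical.

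Antigen presentation moved less. For HLA class I presentation, 2 of 15 tested genes were higher (median 0.53), the peptide transporter TAP1 (log2 fold change 1.87) and the proteasome activator PSME2 (1.21). B2M, the light chain of class I molecules, had 979, 1194, and 1171 CPM in CTRL and 2083, 2204, and 2094 in treated cells, without overlap, but with a log2 fold change of 0.93 it was not called. PSME1 (0.88), HLA-E (0.83), and PSMB8 (0.82) also had an adjusted p of at most 0.05 by edgeR and a smaller change than the threshold. HLA-B, HLA-C, and TAP2 could not be tested: they had at most 0.425 CPM in any of the 6 libraries, and TAPBP had 1.21, 13.1, and 25.7 CPM in CTRL cells. Only uniquely mapped reads were counted, so these levels are uncertain. For HLA class II presentation, 0 of 8 tested genes were called (median 0.06), 2 of them with an adjusted p of at most 0.05, and HLA-DRA was at 0.0405 to 0.373 CPM.

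**Figure D2:**
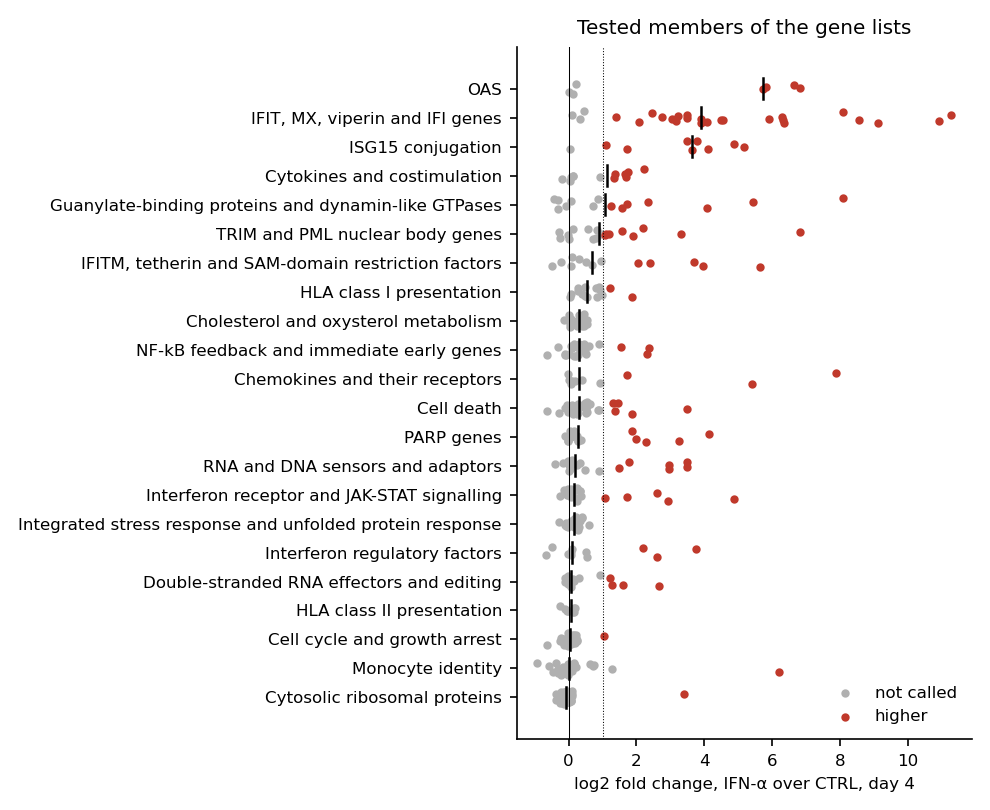
Log2 fold change of IFN-α over CTRL cells for each tested member of the functional lists, in red where called higher and gray where not, with the median of a list as a black line and the threshold of 1 dotted. Lists of ISG15 conjugation, IFIT, MX, and IFI genes, and OAS genes stand at the top with medians of 3.64 to 5.73, and the single ribosomal point to the right is RPL10, which rests on 1 library and turned to −1.13 against GFP-targeted control cells.

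Of chemokines and their receptors, 3 of 10 tested were higher (median 0.30), all from very low levels. CXCL10, a ligand of CXCR3, had 7 counts over the 3 CTRL libraries (0, 0.0405, and 0.00668 CPM) and 0.567, 0.696, and 1.03 CPM with IFN-α (log2 fold change 5.41). CXCL11 had no CTRL counts and 0.113, 0.167, and 0.431 CPM with IFN-α, and was at least 32.1-fold higher than the CTRL level that 3 counts over the group allow. CCL2 had 0.0920, 0.108, and 0.0868 CPM in CTRL and 0.340, 0.382, and 0.236 in treated cells (log2 fold change 1.72). It lost its call with limma-voom and against GFP-targeted cells (log2 fold change 0.98). With GBP1 and GBP1P1 these are the 5 genes called from under 0.1 CPM.

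Of cytokines and costimulatory genes, 6 of 12 were higher (median 1.13). CSF1, the growth factor of macrophages, had 0.865, 1.09, and 0.728 CPM in CTRL and 4.23, 3.74, and 4.53 in treated cells (log2 fold change 2.22). LGALS9 (1.76), the B cell factor TNFSF13B (1.68), and the IL-15 receptor chain IL15RA (1.67) rose as well. TNFSF10, which encodes the death ligand TRAIL, rose with a log2 fold change of 1.38. It also belongs to the cell death list, in which 5 of 30 tested genes were higher (median 0.29), among them XAF1 (3.48), APOL3 (1.87), and APOL1 (1.44).

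Of NF-κB feedback and immediate early genes, 3 of 25 were called higher (median 0.30), and all 3 were immediate early genes with 1 treated library apart from the others. FOS had 14.6, 14.2, and 14.5 CPM in CTRL and 51.9, 56.9, and 17.4 in IFN-α–treated cells (log2 fold change 1.54). EGR1 had 1.74, 1.82, and 1.64 CPM, and then 13.5, 10.8, and 2.49 (log2 fold change 2.37). FOSB had 0.478, 0.310, and 0.361 CPM, and then 1.82, 3.33, and 0.545 (log2 fold change 2.31). In each, replicates 1 and 2 of the treated cells were several-fold above CTRL and replicate 3 was close to it. FOSB lost its call without replicate 2 of the treated cells (log2 fold change 1.63, adjusted p = 0.154 by edgeR), without replicate 2 or 3 of CTRL cells (2.18 and 2.27), and with limma-voom (1.94).

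Few genes of general cell functions were called. Of cell cycle and growth arrest genes, 1 of 34 was higher (median 0.04). This was CDKN1A, an inhibitor of cyclin-dependent kinases, with 30.5, 23.99, and 29.5 CPM in CTRL and 57.7, 53.6, and 61.9 in treated cells (log2 fold change 1.04). It lost its call against GFP-targeted cells (0.72), without replicate 3 of treated cells (0.99), and without replicate 2 of CTRL cells (0.94). No gene of cholesterol metabolism (0 of 25, median 0.30, 4 with an adjusted p of at most 0.05) or of the integrated stress and unfolded protein responses (0 of 23, median 0.16, 2 with an adjusted p of at most 0.05) was called by edgeR. Of monocyte genes, 1 of 27 was higher (median 0.00). SIGLEC1, a sialic acid receptor of macrophages, rose from 2.32, 1.53, and 2.25 to 142, 147, and 160.1 CPM (log2 fold change 6.21). Within the marker list of B and plasma cells, whose sum was 11.7 to 14.3 CPM in CTRL and 28.4 to 31.7 in treated cells, the B cell transcription factor PAX5 alone was called, with 3.26, 3.43, and 2.78 CPM in CTRL and 18.9, 24.8, and 23.5 in treated cells (log2 fold change 2.83). CD79B (−0.32) and SDC1 (−0.60) were not called, and the defining markers MS4A1, CD79A, and TNFRSF17 were below the filter. Of 57 genes of cytosolic ribosomal proteins, RPL10 alone was called (median −0.08). RPL10 had 11.997, 0.823, and 12.5 CPM in CTRL, 239, 12.8, and 15.5 in treated, and 172, 178, and 233 in GFP-targeted cells. Its log2 fold change of 3.40 was 0.75 without replicate 1 of the treated cells (adjusted p = 0.664 by edgeR) and −1.13 against GFP-targeted cells, it lost its call without any 1 of the CTRL replicates (log2 fold change 2.86 to 3.83), and its processed copies elsewhere in the genome make its count uncertain.

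The 15 genes that were lower had much smaller changes, from −1.01 to −1.51, and none belonged to a list. MGAT2, an enzyme of N-glycan processing, had 7.53, 4.37, and 8.06 CPM in CTRL and 2.92, 3.40, and 0.707 in treated cells (log2 fold change −1.51). NPTX1, a secreted pentraxin, had 5.26, 4.38, and 7.16 CPM, and then 1.73, 1.84, and 2.61 (log2 fold change −1.44). EPAS1, the hypoxia-inducible factor HIF-2α, had 40.9, 39.4, and 45.0 CPM, and then 14.3, 16.04, and 18.6 (log2 fold change −1.36, standard error 0.111, adjusted p = 1.55e-12 by edgeR). Treated and CTRL libraries did not overlap in any of the 15, and in MGAT2 replicate 3 of the treated cells was the lowest. KIT, the receptor of stem cell factor, had 17.5, 16.7, and 18.8 CPM, and then 8.89, 7.39, and 10.0 (log2 fold change −1.01), and PHLDA3, a target of p53, had −1.03, as ZMAT3, another p53 target, had −1.11. The others were LINGO3 (−1.37), DEGS2 (−1.17), AJM1 (−1.10), MTURN (−1.09), MEGF6 (−1.08), YPEL3 (−1.07), GRIN3B (−1.07), ABTB1 (−1.02), and ENSG00000198558.2, an identifier without a symbol in the annotation used here (166, 151, and 136 CPM, and then 64.9, 69.4, and 51.2). Of the 15, NPTX1, EPAS1, and ENSG00000198558.2 kept their call in every alternative that was run, against 135 of the 159 higher genes. Against GFP-targeted cells, 5 of the 15 and 144 of the 159 kept it.

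Induced genes often lay side by side. Of the 157 higher genes with a position in the annotation, 44 (28.03%) had another higher gene within 100 kb, in 18 runs. Of all tested genes, 3.27% had a higher gene so close. The longest runs were GBP1, GBP2, GBP4, and GBP5 on chromosome 1 (89517565 to 89738543), IFIT2, IFIT3, IFIT1, and IFIT5 on chromosome 10 (91043451 to 91181362), and PSME2, IRF9, and REC8 with the locus ENSG00000259529 between them on chromosome 14 (24612571 to 24649463). OAS1, OAS3, and OAS2 and the group of NRIR, CMPK2, and RSAD2 formed runs of 3, and MX2 with MX1, TRIM5 with TRIM22, and SAMD9 with SAMD9L were among the pairs. Many of these are families of related sequence. The remaining 378 neighbors within 100 kb that were not called had a median log2 fold change of 0.04, beside 0.02 over all genes.

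Intron counts give the RNA of gene stretches outside the exons of APPRIS-annotated (principal) transcripts, as the study defined them. Exons of other transcripts may lie in these stretches, so the counts are not unspliced RNA alone. Of 21798 introns tested, 179 (0.821%) were higher and 5 (0.0229%) lower with edgeR (quasi-likelihood, Benjamini-Hochberg). Most of them were parts of the genes above: 171 of the 179 lay in exactly 1 tested gene, and in 143 this gene was itself called higher. The 161 tested introns within higher genes had a median log2 fold change of 1.74, beside 1.76 for their genes, and 55 of these 63 genes held an intron called higher. The median of the 20164 introns in genes that were not called was −0.03, as over all introns. Of the 161 introns, 130 were within 0.5 of their gene on the log2 scale and 98 were below it. There were 18 that were not called, and 12 lay more than 1 below their gene. Among these, 1 intron of ADAR had a log2 fold change of −0.03 beside 1.61 for the gene, 1 of NCOA7 had 0.03 beside 1.97, and 1 of SHISA5 had 0.40 beside 2.34, whereas other introns of each of these genes were called higher.

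An intron of IFI44L (79086257 to 79093590 of chromosome 1) had 0.0460, 0, and 0.0401 CPM in CTRL and 38.8, 24.1, and 32.1 in IFN-α–treated cells, 11 counts against 10514, a log2 fold change of 10.13 (adjusted p = 1.81e-15 by edgeR). Introns of IFI44 had log2 fold changes of 10.43, 9.12, and 8.93, and those of MX1 up to 7.75. In CTRL libraries these introns had few or no counts, and in treated libraries far more. An intron of 9563 bases that the annotation assigns to both IFIT1 and LIPA (chromosome 10, 91152475 to 91162037) had 0.0552, 0.0135, and 0.02004 CPM, and then 7.31, 6.37, and 9.93 (log2 fold change 8.12).

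The 28 higher introns in a gene that was not called were of different kinds. In 17 of them the host gene had a log2 fold change of 0.7 or more, just under the threshold: introns of UNC93B1, which escorts endosomal TLRs, were higher by 1.07 to 1.27, with 0.90 for the gene. In 7, a higher gene lay within 20 kb. An intron of LIPA (log2 fold change 5.34, gene 0.33) touched IFIT1, an intron of MVB12A (2.40, gene −0.28) ended 92 bases from BST2, an intron of GCA (1.63, gene 0.11) began 156 bases from IFIH1, and an intron of ACO1 (2.27, gene −0.35) lay 6407 bases from RIGI. The strand setting of the intron counts is not stated, so reads of adjacent genes may be included, which was not tested. Introns of PDE4B (2.02 and 1.67, gene 0.45), a phosphodiesterase of cyclic AMP, were far from any higher gene.

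The 5 lower introns were in MEGF6 (log2 fold change −1.01), ACTB (−1.15), and EPAS1 (−1.44), and at chr1:167410005-167487644 (−1.02) and chr1:178062864-178063275 (−1.12). EPAS1 and MEGF6 were also lower as genes. The ACTB intron had 35.3, 22.8, and 31.6 CPM in CTRL and 16.8, 19.7, and 3.98 in treated cells, so that it rested on replicate 3. Against GFP-targeted cells none of the 5 was called, with log2 fold changes of −0.71 (MEGF6, adjusted p = 0.0019 by edgeR), −0.43 (ACTB), −0.94 (EPAS1), −0.82 (chr1:167410005-167487644, adjusted p = 0.00202 by edgeR), and −0.65 (chr1:178062864-178063275), whereas 164 of the 179 higher introns kept their call.

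Editing cluster regions (ECRs) are stretches that the authors defined around dense groups of A-to-I editing sites, extended on both sides. Of 2528 ECRs tested for RNA level, 19 (0.752%) were higher and 3 (0.119%) lower with edgeR (quasi-likelihood, Benjamini-Hochberg). Most higher ECRs were in ISGs: 18 lay in 17 genes that were themselves called higher, and the other was in MVB12A, next to BST2. The ECR in MVB12A lies inside the MVB12A intron named above. It also overlaps the loci BISPR and ENSG00000269481, which were not among the tested genes. All 18 ECRs that were tested within higher genes were called, with a median log2 fold change of 2.43 beside 2.36 for their genes and −0.02 over all ECRs. An ECR of MX1 (chromosome 21, 42818756 to 42821653) had 0.616, 0.614, and 0.528 CPM in CTRL and 189, 223, and 241 in treated cells (log2 fold change 8.54). Another ECR of MX1 had 8.10, followed by ECRs of the lncRNA NRIR (4.36), PARP9 (4.05), SP110 (4.03), and DHX58 (3.46). The ECR of EIF2AK2 (chromosome 2, 37326658 to 37332645) had 32.1, 38.4, and 35.6 CPM, and then 168, 209, and 249 (log2 fold change 2.56).

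Of the lower ECRs, that of AUH, an RNA-binding mitochondrial hydratase, was even in all libraries, with 15.3, 16.6, and 16.8 CPM in CTRL and 7.94, 7.64, and 8.19 in treated cells (log2 fold change −1.04). The ECR of POLE2 rested on 1 library, with 3.09, 98.5, and 2.23 CPM in CTRL and 3.34, 2.36, and 2.10 in treated cells. Its log2 fold change of −3.74 became −0.03 without replicate 2 of CTRL cells and 0.0085 against GFP-targeted cells. The remaining one, on chromosome 8, had a log2 fold change of −1.20.

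Editing was counted at 100911 sites with at least 10 reads in each of the 6 libraries. The share of edited reads was 4.54, 4.84, and 4.82% in CTRL and 7.98, 9.18, and 10.0% in IFN-α–treated cells. All treated libraries were above all CTRL libraries, and the means of 4.73 ± 0.167 and 9.06 ± 1.02% (SD, n = 3 each) differed by 4.33 points, a ratio of 1.91. The exact two-sided permutation test gave p = 0.1, the smallest that 3 against 3 libraries allow. Wilson 95% intervals, which cover counting error only, were narrow (4.52 to 4.56% for replicate 1 of CTRL cells, 9.98 to 10.1% for replicate 3 of treated cells). Replicate 3 of the treated cells had both the highest editing and the fewest reads on editing sites (4431402, beside 7654252 and 7925315 in the other treated and 8350748 to 11177107 in CTRL libraries), and whether the read number moved the share was not tested. On 88921 sites that also had 10 reads in GFP-targeted cells, these had 4.27, 4.84, and 4.65%, near CTRL. The sites come from the study's list, which may include sites listed for their treated level (below). At 11530 sites chosen on CTRL and GFP-targeted cells of days 3 and 5, means were 20.8 and 34.1%, a ratio of 1.64.

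By annotation, the change was largest in 3′ UTRs. The list of sites may weigh on these ratios as well. At 35132 sites in 3′ UTRs editing was 5.46, 5.56, and 5.47% in CTRL and 10.8, 11.6, and 13.0% in treated cells, a ratio of 2.14. At 35845 sites in introns it was 3.91, 4.31, and 4.35%, and then 5.51, 6.74, and 7.17%, a ratio of 1.54. Groups were apart in both classes, and 3′ UTRs of treated cells were apart from introns. Editing in 3′ UTRs over editing in introns was 1.40, 1.29, and 1.26 in the CTRL libraries and 1.96, 1.72, and 1.81 in the treated ones, without overlap (exact permutation p = 0.1, the smallest possible). Intergenic sites rose from 4.10 ± 0.236 to 7.81 ± 0.990% (SD, n = 3 each), exons of noncoding RNA from 3.62 ± 0.152 to 5.63 ± 0.482%, 5′ UTRs from 3.11 ± 0.348 to 4.30 ± 0.225%, and coding sequence from 2.23 ± 0.121 to 3.09 ± 0.0788%. Sites inside an ECR had 5.73 ± 0.151 and 11.3 ± 1.29%, those outside 1.56 ± 0.0849 and 2.49 ± 0.282% (SD, n = 3 each).

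ADAR enzymes are known to disfavor a G at the 5′ side of the edited A. Sites after G had the lowest editing in both groups, 2.29 ± 0.110% in CTRL and 4.54 ± 0.529% in treated cells, and sites after T the highest, 7.19 ± 0.223 and 12.5 ± 1.35% (SD, n = 3 each). Sites after A went from 4.52 to 9.15% and sites after C from 4.38 to 8.76%. The ratio of treated to CTRL was 1.74 after T and 1.98 to 2.02 after the other bases.

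To order sites by their level without the libraries compared, editing in CTRL and GFP-targeted cells of days 3 and 5 was used, a choice made after the data were seen. Sites under 1% there had 0.495% in CTRL and 1.57% in treated cells, a ratio of 3.18. The ratio was lower the higher the level: 2.66 from 1 to 5%, 2.31 from 5 to 10%, 1.87 from 10 to 25%, 1.48 from 25 to 50%, 1.17 from 50 to 75%, and 1.04 at 75% or more. The difference in points was largest at sites from 25 to 50%, which had 34.2, 34.5, and 34.2% in CTRL and 47.0, 50.1, and 55.3% in treated cells, a mean difference of 16.5 points. Treated and CTRL libraries did not overlap in any of the 7 classes. The study listed sites with editing of 5% or more in at least 1 sample with intact ADAR, which may include the treated libraries. All sites counted here came from this list, so sites low in controls may be listed for their treated level. Editing also has a ceiling at high levels. The order of the ratios was thus partly set in advance.

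Single sites were tested where they passed the study's filter (10 reads or more, and editing of 5% or more in all and of 10% or more in 2 libraries of a group) in either group. Of 17247 such sites, 8666 (50.2%) were higher and 27 (0.157%) lower with IFN-α with edgeR (quasi-likelihood on edited and unedited reads, Benjamini-Hochberg). The filter weighs on these counts. The 8295 sites that passed in treated cells alone had to differ, and 5431 of them were called. Of the 8236 that passed in both groups, 3235 (39.3%) were higher and 9 lower, with a median difference of 11.3 points. The 716 that passed in CTRL cells alone had to differ the other way, and 18 of them were lower and 0 higher, with a median difference of −3.10 points. At 11530 sites chosen instead on CTRL and GFP-targeted cells of days 3 and 5, 3901 (33.8%) were higher and 12 (0.104%) lower, with a median difference of 10.2 points. At these sites editing was 20.5, 21.1, and 20.9% in CTRL and 31.1, 33.8, and 37.4% in treated cells. Called sites were thus mostly higher where the choice of sites did not rest on CTRL cells of day 4 alone.

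The surroundings of 4 sites are shown, with the edited A in capitals on the strand of the RNA (GRCh37). Those of RPS19 and SYAP1 had some of the largest changes in 3′ UTRs. Those of CGAS and PUS1 had changes in sequence that is coding in some annotated transcript, in genes with known roles.
RPS19 (chr19:42375617-42375637, plus strand, 3′ UTR): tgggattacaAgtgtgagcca
SYAP1 (chrX:16781176-16781196, plus strand, 3′ UTR): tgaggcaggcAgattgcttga
PUS1 (chr12:132416584-132416604, plus strand, coding sequence): ggcagctcacActtgtaatct
CGAS (chr6:74134065-74134085, minus strand, coding sequence): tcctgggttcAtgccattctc
The site of RPS19, a ribosomal protein gene, was edited in 13 of 57, 6 of 40, and 7 of 37 reads in CTRL cells and in 33 of 42, 30 of 45, and 22 of 31 in treated cells, from 18.9 ± 3.90 to 72.1 ± 6.03% (SD, n = 3 each; adjusted p = 4.85e-12 by edgeR). In SYAP1 editing rose from 26.8 ± 6.98 to 80.2 ± 13.8% (SD, n = 3 each). Treated libraries were above CTRL at both sites. Large differences were 57.9 and 54.5 points at a pair of sites on the unplaced contig GL000222.1. The site with 57.9 points passed the filter in treated cells alone and so had to differ. Other large differences included GOLGA8S (53.7), SYAP1 (53.4), RPS19 (53.2), and DTD2 (52.5), which passed in both groups.

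In coding sequence, 29 of 101 tested sites (28.7%) were higher and 0 lower, where 50.2% of all tested sites were higher and 0.157% lower. A site was taken as coding where any annotated transcript codes there, and it may be noncoding in other transcripts. Whether these transcripts are expressed, or a protein changed, was not tested. Of the 29, 18 passed the filter in treated cells alone and so had to differ, among them those of KATNBL1. The other 11, of 57 that passed in both groups, lay in genes such as SRD5A3, SLC35A3, PUS1, HELLS, and CDK10, by the annotation used here. Over all regions, 3235 of the 8236 sites that passed in both groups (39.3%) were higher. Those in SLC35A3 lie close together (100490207 to 100490303 of chromosome 1) and may share reads. The CGAS site (chromosome 6, 74134075), in the gene of the cytosolic DNA sensor, was edited in 7 of 407, 14 of 438, and 15 of 376 reads in CTRL and in 57 of 374, 59 of 457, and 43 of 250 reads in treated cells, from 2.97 ± 1.15 to 15.1 ± 2.15% (SD, n = 3 each). It passed the filter in treated cells alone. The PUS1 site, in the gene of a pseudouridine synthase, went from 17.9 ± 5.90 to 41.7 ± 10.2% and passed in both groups. CGAS and PUS1 were named after their values were seen.

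Of the 8 lower sites with the largest differences, 4 lay in RPAP3-DT, a noncoding RNA on chromosome 12. At position 48100105 editing was 18 of 43, 13 of 23, and 6 of 15 reads in CTRL and 3 of 27, 3 of 31, and 1 of 10 in treated cells, a difference of −35.9 points, and the sites at 48100104, 48100111, and 48100119 fell by 25.3, 23.1, and 21.9 points. These lie within the same reads and are not independent. Position 48100105 kept its call in all 11 alternatives run. Position 48100119 lost its call in 9 of 11, with −4.60 points against GFP-targeted cells, and 48100104, which passed the filter in CTRL cells alone, lost it in 3, with −15.3 points against GFP-targeted cells. Position 48100111 lost its call without replicate 2 of treated cells (−15.8). The others included sites in EDEM1 (−24.5), CALCOCO2 (−21.6), and LYST (−15.9), on 10 to 20 reads per library. The CALCOCO2 site lost its call in 8 of 11 alternatives, with −11.0 points against GFP-targeted cells and −13.8 without replicate 3 of CTRL cells, and the EDEM1 site in 5 of 10. The LYST site passed the filter in CTRL cells alone and so had to differ.

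Editing summed over the filtered sites of an ECR was tested for 1023 ECRs with at least 3 sites. It was higher in 721 (70.5%) and lower in 3 (0.293%) with edgeR (quasi-likelihood, Benjamini-Hochberg). Of all tested sites, 8295 passed the filter in treated cells alone and 716 in CTRL cells alone, and these had to differ. Such sites are part of the sums, so the filter weighs on the counts made with them. The median ECR had 14.5% in CTRL and 25.3% in treated cells, and the lower and upper quartiles of the difference were 5.80 and 14.6 points. All treated libraries were above all CTRL libraries in 751 ECRs (73.4%) and below in 5 (0.489%). With sites chosen on CTRL and GFP-targeted cells of days 3 and 5, 524 of 895 ECRs (58.5%) were higher and 2 lower, with a median difference of 9.94 points.

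The ECR in the 3′ UTR of SERBP1, an mRNA-binding protein (chromosome 1, 67873689 to 67875731), had 19.8, 13.8, and 18.0% in CTRL and 52.8, 53.5, and 63.6% in treated cells, on 494 to 938 reads per library. That of the lncRNA FGD5-AS1 had 30.06, 30.005, and 26.8%, and then 59.9, 60.4, and 65.1%. That of RPS19 had 24.8, 21.2, and 21.2%, and then 46.4, 49.4, and 53.7% over 7 sites. The groups were apart in each, with differences of 39.4, 32.8, and 27.4 points. NIN (39.8), DTD2 (31.2), ERCC6L2 (27.0), CENPBD2P (27.0), and POLQ (26.7) had the other large differences. The ECRs of SERBP1, FGD5-AS1, NIN, and POLQ rested on 3 sites each, the fewest allowed. Reads per library were 37 to 60 in NIN and 34 to 71 in POLQ. The 3 ECRs with lower editing were in EDEM1 (18.1, 29.4, and 21.95%, and then 7.41, 13.8, and 9.43%), at RPAP3 and RPAP3-DT (a mean of 32.7%, and then 26.8%), and in LINC00910 (95.8%, and then 91.6%). Each lost its call in at least 1 alternative: EDEM1 without replicate 2 of CTRL cells (−9.79 points), RPAP3 in 4 of 11, with −3.73 beside −5.88 points without replicate 2 of treated cells, and LINC00910 in 7 of 12.

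**Figure D3:**
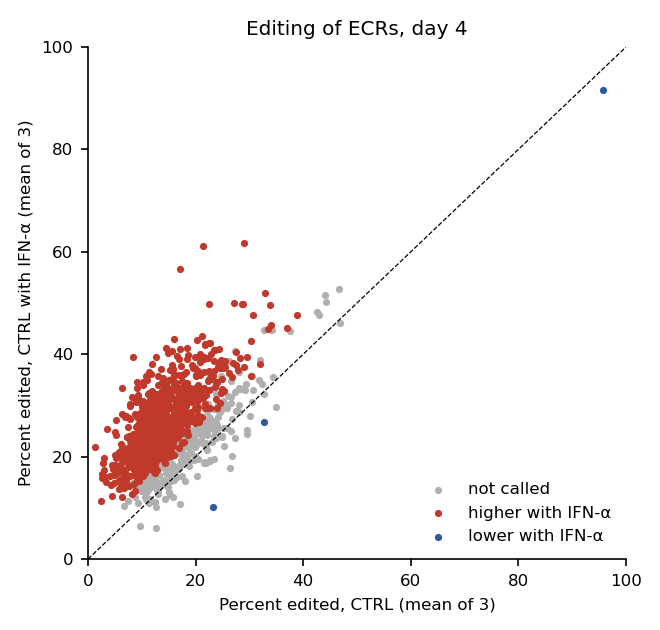
Mean percent edited of each of 1023 ECRs in IFN-α–treated cells against CTRL cells, each the mean of 3 libraries, in red where called higher, blue where called lower, and gray where not called, with the line of equality dashed. Most points lie above the line, with medians of 14.5% in CTRL and 25.3% in treated cells, and 3 points are blue. Sites that passed the filter in treated cells alone are included, so the filter weighs on this shift.

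Most ECRs with higher editing had no called change of RNA level, as was true of all ECRs. Of 2528 tested, 19 were higher and 3 lower in RNA level. Editing here rests on the same filtered sites as above. Of 964 ECRs tested for both, 678 (70.3%) had higher editing, and in 670 of these the RNA level was not called. All 7 ECRs with a higher RNA level in this set also had higher editing. These 7 were in RNF213, MVB12A, GBP4, APOL6, APOL1, APOBEC3G, and EIF2AK2. In EIF2AK2, an ECR with 60 filtered sites, the RNA level rose with a log2 fold change of 2.56 while editing went from 10.9 to 28.7%. In APOL1 editing went from 12.9 to 35.7% and in RNF213 from 18.3 to 34.0%. In AUH the RNA level fell and editing went from 10.2 to 25.4%. The median log2 fold change of RNA level over ECRs with higher editing was −0.05.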

How the data were processed

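RNA of whole THP-1 cells was sequenced in 3 libraries per group, and the members and gene lists described here were chosen with earlier results of these data known. The authors mapped reads to GRCh37 with STAR 2.5.4a, kept uniquely mapped reads, and deposited counts per gene, intron, and ECR made with featureCounts and bedtools (per the submitters' processing notes and the study's methods), and counts of edited and total reads per editing site. The strand setting of the counting is not given in the sources used here. Unique mapping makes counts of paralogs, pseudogenes, and HLA genes uncertain. All columns used here belong to a named sample (0 without one). Gene totals were 107072732 to 152073473 counts per library, so that sampling error is small except for low features, and replicates differed by more than sampling noise.

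Symbols and positions were taken from a GENCODE annotation on GRCh37 that is more recent than the study (55538 of 57820 identifiers had a symbol). The filter was an average log2 CPM, over all 48 libraries of the first study, of at least 0.5 (genes), 1 (introns), or 4.5 (ECRs). For ECRs it was taken relative to ECR totals. Features low in the 6 libraries could thus pass through other groups. Those that passed were fitted by edgeR 4.0.16 (R 4.3.3) with TMM factors and the quasi-likelihood test over the same 48 libraries, with Benjamini-Hochberg adjustment. A feature was called where the adjusted p did not exceed 0.05 and the log2 fold change was 1 or more in size. Editing sites and ECR sums were tested by edgeR on edited and unedited reads of the 6 libraries, with an adjusted p of at most 0.05, and 1.70% of sites had an empty value in at least 1 of the 6 libraries and were left out. Fits were tested on simulated data. Alternatives used limma 3.58.1, DESeq2 1.42.0, other scaling and filters, the 6 libraries alone, GFP-targeted control cells, a coverage of 20 reads, and each library left out. Named were up to 4 called members of a list, the 15 most changed and the 15 most abundant called genes, all lower genes, and the 8 most changed introns, ECRs, and sites in each direction. Members named beyond this, such as list members that were not called, were chosen after their values were seen. Some genes and sequences that these rules name are not reported here.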

Additional observations from a re-analysis of the deposited data

How the results depend on the processing

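Of the 136 features recomputed, 2 that were called changed direction, RPL10 (log2 fold change −1.13) and the ECR of POLE2 (0.0085), both against GFP-targeted cells. STING1, which was not called (0.02), had −0.12 to 0.11. Without the filter on low counts 279 genes were higher and 90 lower, 1035 introns higher and 117 lower, and 5 ECRs lower, over more features. With limma-voom 42 genes and 8 introns were lower. Against GFP-targeted cells 8 genes, 0 introns, and 0 ECRs were lower by edgeR, with 1644 introns and 535 ECRs at an unadjusted p under 0.05 in either direction. With TMM on the intron totals 3 introns were lower. The cause of these differences was not tested. With 1 library left out in turn, 152 to 167 genes were higher and 8 to 35 lower, 158 to 203 introns higher and 4 to 16 lower, and 19 to 22 ECRs higher and 2 to 5 lower. The lower genes numbered 35 without replicate 1 and 27 without replicate 2 of treated cells, and 8 and 27 without replicates 1 and 2 of CTRL cells.

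Editing sites with at least 20 reads gave 5733 higher and 10 lower of 8191 tested, and ECRs of such sites 412 higher and 1 lower of 483, with fewer features tested. Sites chosen on other control libraries, after the data were seen, gave 3901 higher and 12 lower. Leaving out 1 library gave 6910 to 7937 sites higher and 16 to 36 lower, and 647 to 746 ECRs higher and 1 to 3 lower. The difference in overall editing was 5.89 points at 20 reads, 3.07 as the mean of site percents, and 3.85 to 4.87 with 1 library left out. It was 13.3 points at the sites chosen on other control libraries, where CTRL cells had 20.8%, beside 4.73% at all sites counted. The ratio of treated to CTRL was 1.64 there, beside 1.91 at all sites counted. Among named features, 17 of 85 genes, 5 of 13 introns, 3 of 11 ECRs, 5 of 16 sites, and 3 of 11 ECRs tested for editing changed their call in at least 1 alternative. Depth limits sites, since the least covered library had a median of 19 reads at a tested site.

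The labels do not say whether replicate numbers pair the samples, and the values do not settle it. Deviations of same-numbered libraries from their group means correlated with r = 0.46, −0.03, and 0.07. Of the treated libraries, 1 of 3 correlated best with its own number. With the replicate number as a block, 160 genes were higher and 17 lower, 182 introns higher and 6 lower, 20 ECRs higher and 3 lower, 8333 sites higher and 20 lower, and 738 ECRs had higher and 3 lower editing. An unadjusted p under 0.05 by edgeR was found for 4717 genes, 2498 introns, and 745 ECRs with the block. Without it these were 4091, 2025, and 668. For editing they were 9523 sites and 762 ECRs with the block, beside 9786 and 746 without it. The overall editing difference with the block was 4.33 points.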

Other observations

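Of the 159 higher genes, 66 were in no list, and the following were picked after their values were seen. AXL, a receptor tyrosine kinase that dampens innate signaling, had 12.2, 11.1, and 12.02 CPM in CTRL and 188, 224, and 227 in IFN-α–treated cells (log2 fold change 4.18). SHISA5, a membrane protein of the endoplasmic reticulum, had 87.8, 79.3, and 85.7 CPM, and then 389.8, 467, and 424 (2.34). The leucine aminopeptidase LAP3, which trims peptides, had 116, 119, and 121 CPM, and then 435, 485, and 509 (2.01). Treated libraries were far above CTRL in all of these. Lower in level were the transcription factor ETV7 (log2 fold change 4.35), the adaptor STAP1 (4.63), TMCC3 (4.25), and SEPTIN4 (3.44), whose mean was 0.164 to 0.413 CPM in CTRL and 4.10 to 8.12 CPM in treated cells.

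By the base at the 3′ side of the edited A, editing was highest before G, with 5.50 ± 0.202% in CTRL and 10.0 ± 1.13% in treated cells (SD, n = 3 each). It went from 4.11 to 8.53% before A, from 4.30 to 8.51% before T, and from 4.65 to 8.83% before C, and treated libraries were above CTRL in each class.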
